A study of Canis lupus familiaris with 6 samples.

Results

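The canine mammary tumor cell lines P114 and CMT-U27 were compared with each other, gene by gene, on 4 Agilent canine oligo microarrays, which are 4 of the 6 arrays of the series and 2 for each line. The remaining 2 arrays carry the line CMT-U309. P114 comes from an anaplastic cancer and CMT-U27 from a simple carcinoma, and each is a single established line that stands for itself and not for a class of tumors. Each line was grown in RPMI-1640 medium with fetal bovine serum, either alone (monoculture) or for at least 72 h with myeloid-derived suppressor cells (MDSCs), which were sorted from the blood of healthy dogs and kept in culture inserts (co-culture). This time is that of the labels, and the methods of the study give a shorter one. On every array the monoculture RNA and the co-culture RNA of 1 line carried different dyes, and the second array of the line had the dyes exchanged. The study compared co-culture with monoculture inside each line, whereas here each dye channel was read alone and P114 was set against CMT-U27 within the same dye and the same culture condition, with monoculture first. This gives 4 matched differences for each probe, and they are listed below in the order monoculture Cy3, monoculture Cy5, co-culture Cy5 and co-culture Cy3.

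Mammary carcinoma lines differ in how far they keep the traits of the gland epithelium. Epithelial cells hold together through cadherins, claudins and desmosomes and carry keratin filaments, while mesenchymal cells carry vimentin filaments, N-cadherin and a collagen-rich matrix. Epithelial cells can also show MHC class II molecules, which present peptides to helper T cells, when the transactivator CIITA is on.

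A level is the log2 of the processed signal of a probe after each channel was moved to a common median, and levels are compared between lines only for the same probe. Of 43603 probes that are not controls, 26012 were well above background by the flag of the scanner software (called above background from here on) in all 4 channels of at least 1 line and were compared. The compared probes include 9363 genes with a symbol, each represented by its brightest probe. The share of spots well above background ran from 55.2% to 77.0% over the 8 channels, and no spot was saturated. Across probes, which are not independent replicates, the channels of 1 line correlated at 0.98 to 0.99 and matched channels of the different lines at 0.83 to 0.84. The median absolute difference between the lines in monoculture was 0.64 on the log2 scale, and the median gap between the Cy3 and Cy5 readings of that difference was 0.36. The lines were hybridized on separate arrays, so array and line cannot be told apart in any value below, and the labels do not say whether monoculture and co-culture RNA came from separately started cultures.

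In monoculture 2661 probes (10.2%) were at least 2-fold higher in P114 in both dyes and 3899 (15.0%) were at least 2-fold higher in CMT-U27. In co-culture the counts were 2751 (10.6%) and 3898 (15.0%). All 4 matched differences passed 2-fold toward P114 for 2051 probes (7.88%) and toward CMT-U27 for 3029 (11.6%). A dye-swap carries the same RNA, so each culture condition has 1 RNA sample per line and neither comparison has a test. To use both conditions, limma was fitted to the 4 RNA samples with line and culture condition as terms, and the line difference was adjusted by Benjamini-Hochberg over all 26012 probes. At an adjusted p under 0.05 and a difference over 2-fold, 3180 probes (12.2%) were higher in P114 and 4588 (17.6%) in CMT-U27. P114 thus held 40.9% of these calls, and it held 19.2% when the channels, whose median processed signals ran from 59.0 to 117, were left unscaled, which moved the median difference of all probes from -0.06 to -0.53. With each channel scaled to its 75th percentile P114 held 49.5% (3833 probes against 3903) and the median difference was 0.08, and with quantile or loess and Aquantile normalization it held 46.4% and 46.7%. The size of the excess of calls toward CMT-U27 thus depended on the scaling. The test has 1 residual degree of freedom and leans on the spread shared across probes. Its error comes from how far the line difference varied between the culture conditions. It covers neither the spread between repeat RNA samples of a condition, of which there were none, nor that between arrays. By gene, 1053 (11.2%) were called higher in P114 and 1807 (19.3%) in CMT-U27. The corresponding gene counts in monoculture were 908 (9.70%) and 1532 (16.4%), and in co-culture 915 (9.77%) and 1529 (16.3%). In all 4 matched differences, 693 genes (7.40%) were past 2-fold toward P114 and 1194 (12.8%) toward CMT-U27. The limma shares of all genes, 11.2% toward P114 and 19.3% toward CMT-U27, are the level against which limma calls in the gene lists below are read. List counts in monoculture are read against the 9.70% and 16.4% of all genes in monoculture. Shares of a list are taken over its members that passed. Where the dimmer line was above background in only some of its channels, a fitted difference rests in part on background signal, and the number of channels is given.

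**Figure D1:**
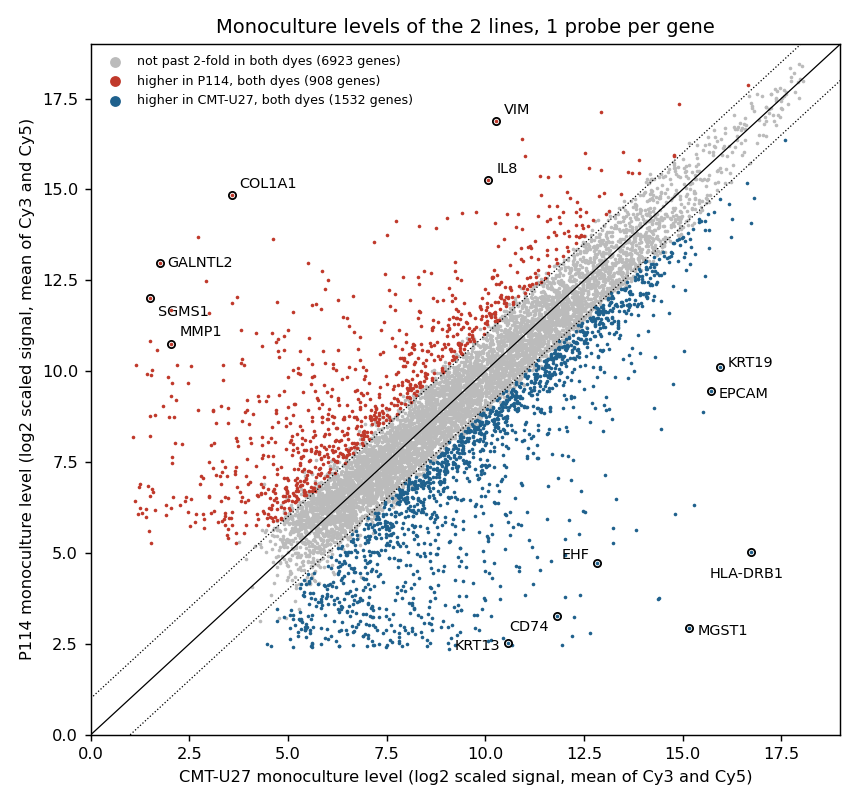
Monoculture level of each of the 9363 genes in CMT-U27 (horizontal axis) and P114 (vertical axis), both as log2 scaled signal averaged over Cy3 and Cy5. The solid line marks equal levels and the dotted lines a 2-fold difference. The 908 red and 1532 blue genes pass 2-fold in both dyes, and the named genes lie far from the line of equal levels.

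The 12 genes with the largest smallest-of-4 difference toward P114 were GALNTL2, COL1A1, SGMS1, DCN, ALPK2, COL4A1, STC1, NRG1, WDFY4, FLRT2, MMP1 and PTGS2. The 12 toward CMT-U27 were MGST1, HLA-DRB1, DLA-DRA, HLA-DQB1, FBP1, GPR110, IRX2, SLPI, CD74, CES1, FBP2 and SLC1A1. Because these genes were picked by their differences, their values are a description.

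GALNTL2, a glycosyltransferase gene that starts mucin-type sugar chains, read 13.17, 12.79, 13.14 and 13.29 in the 4 P114 channels and 1.67, 1.82, 2.19 and 2.04 in the CMT-U27 channels. Its CMT-U27 signal was above background in no channel, which leaves a bound of at least 591-fold higher in P114, taken against the lowest signal that counts as well above background. STC1, a secreted glycoprotein gene, read, as means over the dyes, 13.64 in monoculture and 13.96 in co-culture in P114 and 4.61 in monoculture and 5.28 in co-culture in CMT-U27, where it was measurable in all 4 channels, a fitted log2 difference of 8.86 (SE 0.21). In the other direction MGST1, a membrane-bound glutathione transferase gene, was at 15.22, 15.12, 14.71 and 14.80 in CMT-U27 and above background in no P114 channel, at least 1497-fold higher in CMT-U27. SLPI, an inhibitor of leukocyte elastase made by secretory epithelia, read 15.26, 15.33, 15.48 and 15.43 in CMT-U27 and 5.92, 6.75, 6.26 and 6.21 in P114. These genes were picked for wide gaps between the lines, so the lack of overlap between their groups of channels follows from that choice.

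Genes of epithelial junctions and identity were mostly higher in CMT-U27. Of 44 genes on the list, 38 have a probe under their symbol and 34 passed the filter. In monoculture 27 of these were past 2-fold toward CMT-U27 and 1 toward P114, with a median difference of -2.66 on the log2 scale against -0.15 over all genes. Limma called 28 (82.4%) higher in CMT-U27 and 2 (5.88%) in P114 (MUC1 and TJP1), against the 19.3% and 11.2% of all genes given above. In P114, 8 of the 38 were above background in no channel, against 1 in CMT-U27.

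EPCAM, which encodes an epithelial adhesion molecule, read 9.15, 9.79, 8.94 and 9.42 in P114 and 15.87, 15.57, 15.31 and 15.52 in CMT-U27. It was measurable in every channel of both lines, and the fitted log2 difference was -6.24 (SE 0.20, limma adjusted p = 7.5e-16). E-cadherin (CDH1), the main adhesion protein of epithelial sheets, lay at 7.80, 7.75, 7.67 and 8.14 in CMT-U27 and was well above background in only 2 of 4 P114 channels, with readings of 3.73, 4.38, 4.50 and 3.24. EHF, an epithelial transcription factor of the ETS family, read 12.72, 12.95, 12.97 and 13.12 in CMT-U27 and between 3.90 and 5.27 in P114, again above background in 2 of 4 P114 channels. ESRP1, a splicing regulator of epithelial cells, was above background in no P114 channel and was at least 58.9-fold higher in CMT-U27. The desmosomal cadherin DSG3 differed by -6.01 (SE 0.22), with 2 of 4 P114 channels above background.

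MUC1, a membrane mucin, ran the other way. Its probe read 8.94, 8.94, 8.47 and 8.77 in P114 and 3.73, 4.20, 4.47 and 2.65 in CMT-U27, where 2 of 4 channels were well above background. TJP1, a tight junction scaffold, was 1.04 higher in P114 on the log2 scale (SE 0.20) at its brightest probe, while the other of its 2 probes had the opposite sign.

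Of 41 keratins, the filament proteins of epithelial cells, 26 have a probe under their symbol and 8 passed the filter. KRT13, KRT16 and KRT19 were past 2-fold toward CMT-U27 in monoculture and no keratin was past 2-fold toward P114. Limma called 4 (50.0%) higher in CMT-U27 and 0 in P114. KRT19, a keratin of luminal cells, read 15.77, 16.11, 16.41 and 16.44 in CMT-U27 and 10.17, 10.04, 9.60 and 9.45 in P114. KRT13 was above background in no P114 channel and was at least 63.9-fold higher in CMT-U27. The basal cell keratin KRT14 was high in both lines, at 12.10, 12.02, 12.26 and 11.65 in P114 and 11.20, 10.79, 11.68 and 11.13 in CMT-U27, with a fitted log2 difference of 0.81 (SE 0.21) that did not reach 2-fold, and 1 of its 3 probes had the opposite sign. No probe was found under the symbols KRT5, KRT7, KRT8 and KRT18. Of the mammary epithelial markers that could be read, EPCAM, KRT19 and KRT14 were therefore well above background in every channel of both lines, and CDH1 in every CMT-U27 channel but in 2 of 4 of P114.

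Mesenchymal genes were higher in P114. Of 28 mesenchymal genes and regulators of epithelial-mesenchymal transition, 25 have a probe and 21 passed, of which 17 were past 2-fold toward P114 in monoculture and 0 toward CMT-U27. Limma called 17 (81.0%) and 0 as well. The median monoculture difference was 3.70 on the log2 scale. Vimentin (VIM) read 17.23, 16.53, 17.25 and 17.01 in P114 and 10.46, 10.09, 10.29 and 10.51 in CMT-U27, a fitted log2 difference of 6.67 (SE 0.20, limma adjusted p = 2.7e-16). N-cadherin (CDH2) read 11.62, 12.20, 11.86 and 12.34 in P114 against 4.90, 4.56, 4.86 and 4.77 in CMT-U27, where 2 of 4 channels were well above background. VIM and CDH2 were thus each much lower in all CMT-U27 channels than in any P114 channel, while limma left 4 of the 21 genes uncalled.

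Among the transcription factors of this list, ZEB1, which represses E-cadherin, had P114 readings of 8.45, 9.32, 9.01 and 9.08 and CMT-U27 readings of 3.51, 4.30, 3.29 and 2.41, of which 2 were above background. SNAI2 and SNAI1, repressors of the same kind, were higher in P114 by log2 differences of 5.99 and 2.97, and were above background in 3 and 2 of 4 CMT-U27 channels. TCF4 was not well above background in CMT-U27 and was at least 50.7-fold higher in P114, and the collagen receptor DDR2 at least 29.2-fold. S100A4, a calcium-binding protein of motile cells, read, as means over the dyes, 16.39 in monoculture and 16.70 in co-culture in P114 and 10.93 in monoculture and 10.99 in co-culture in CMT-U27. The surface proteins NT5E and THY1, which are also used as mesenchymal markers, differed by -0.75 (SE 0.22) and -0.53 (SE 0.21), both under 2-fold.

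**Figure D2:**
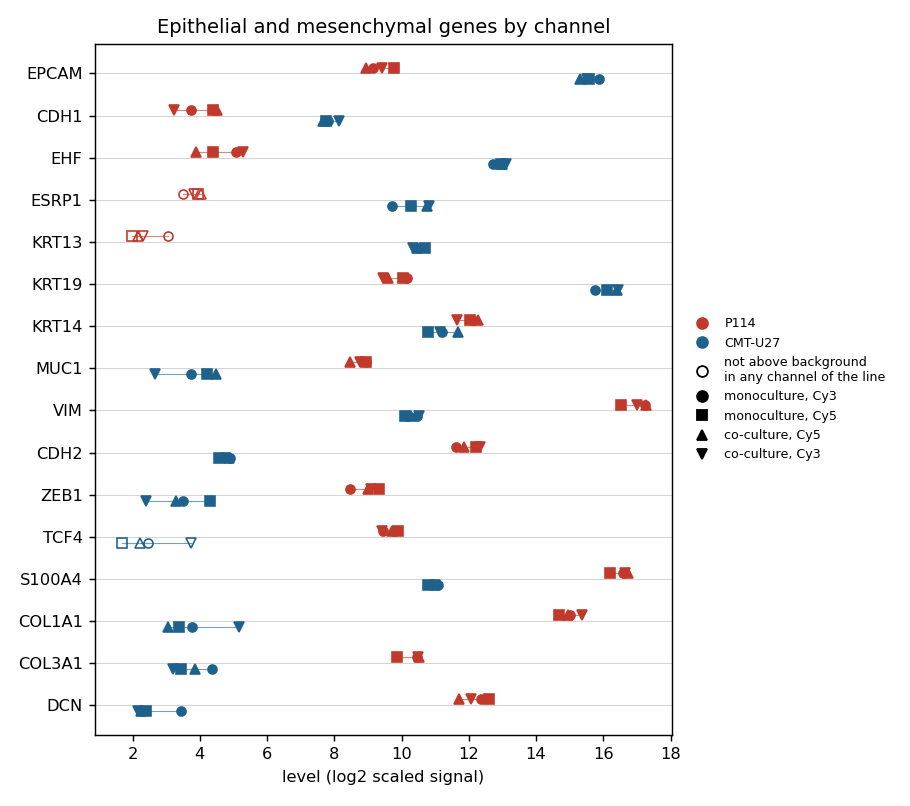
Level (log2 scaled signal) of 16 epithelial and mesenchymal genes in each of the 4 channels of P114 (red) and CMT-U27 (blue), with the marker shape giving culture and dye and open markers a gene that was above background in no channel of that line. The channels of the lines do not overlap for any of the genes except KRT14, whose highest CMT-U27 reading (11.68) lies just over the lowest of P114 (11.65). Many of these genes were named for their large differences, so the lack of overlap follows in part from that choice. The share of all genes without overlap was not counted.

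Extracellular matrix genes followed. Of 52 collagens and matrix proteins, 42 have a probe and 30 passed, and in monoculture 20 (66.7%) were past 2-fold toward P114 and 3 (10.0%) toward CMT-U27, with a median difference of 3.91. COL1A1, a chain of type I collagen, read 15.02, 14.68, 14.96 and 15.35 in P114 and 3.77, 3.38, 3.05 and 5.17 in CMT-U27, where 1 of 4 channels was well above background. All 4 of its probes were called higher in P114. The small proteoglycan decorin (DCN) read 12.38, 12.60, 11.71 and 12.06 in P114 and at most 3.43 in CMT-U27, above background in 1 of 4 CMT-U27 channels. COL4A1, a chain of basement membrane collagen, read between 13.33 and 13.87 in P114 and between 0.69 and 4.81 in CMT-U27, above background in 1 of 4 CMT-U27 channels. COL3A1, a fibrillar collagen chain, and THBS3, a thrombospondin, were above background in 4 of 4 P114 channels and in 1 and 2 of 4 CMT-U27 channels.

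The 3 matrix genes that were higher in CMT-U27 were EFEMP1, SDC2 and GPC4. EFEMP1, a fibulin, read, as means over the dyes, 12.03 in monoculture and 11.52 in co-culture in CMT-U27 and 5.39 in monoculture and 5.31 in co-culture in P114, above background in 3 of 4 P114 channels. The membrane proteoglycans SDC2 and GPC4 differed by -3.54 and -2.81, with GPC4 above background in 1 of 4 P114 channels.

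**Figure D3:**
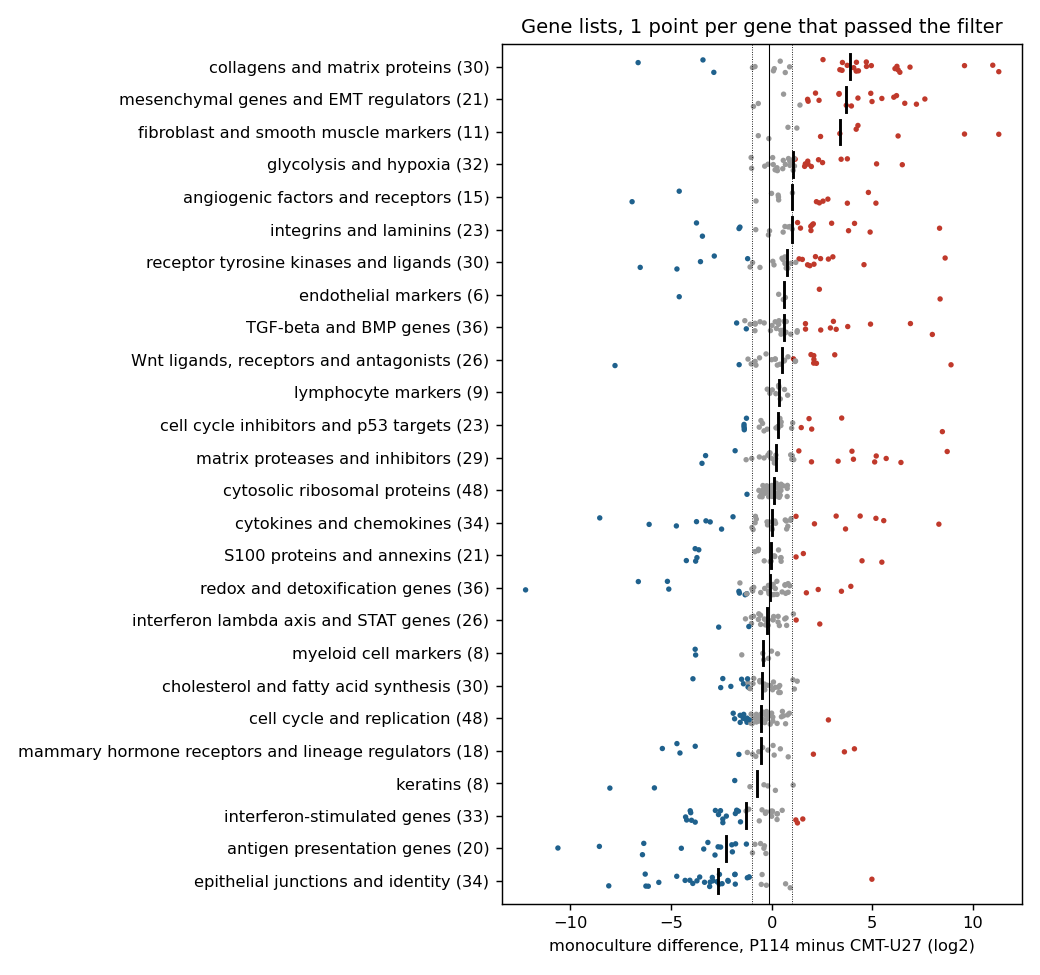
Monoculture difference, P114 minus CMT-U27 on the log2 scale, for each gene of 26 lists that passed the filter, with the number of genes in brackets and the lists ordered by their median (black bar). Red and blue points pass 2-fold in both dyes, the solid line is the median over all genes (-0.15) and the dotted lines mark 2-fold. Matrix and mesenchymal genes lie to the right and epithelial junction and antigen presentation genes to the left.

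Integrins and laminins were called mostly toward P114. Of 23 that passed, from 25 with a probe and 31 listed, limma called 13 (56.5%) higher in P114. It called 4 (17.4%) higher in CMT-U27, near the 19.3% of all genes. ITGA5, a subunit of the fibronectin receptor, read 12.48, 11.62, 12.08 and 12.21 in P114 and 3.62, 3.80, 5.10 and 4.84 in CMT-U27, above background in 3 of 4 CMT-U27 channels. ITGB6 and ITGB8, epithelial integrin subunits that bind latent TGF-beta, were higher in CMT-U27, with log2 differences of -3.17 and -3.16 and 2 of 4 P114 channels above background for each. The laminin chain LAMB3 was also higher in CMT-U27, at -1.60.

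Matrix proteases and their inhibitors were called mostly toward P114. Of 49 proteases and inhibitors 40 have a probe and 29 passed, and limma called 13 (44.8%) higher in P114. It called 5 (17.2%) higher in CMT-U27, near the 19.3% of all genes. The collagenase MMP1 read 10.98, 10.53, 10.75 and 10.80 in P114 and was above background in no CMT-U27 channel, at least 117-fold higher in P114. MMP3 (stromelysin) read between 9.15 and 9.96 in P114 and between 3.31 and 3.75 in CMT-U27, above background in 1 of 4 CMT-U27 channels. MMP13, another collagenase, was above background in 4 of 4 channels of each line and differed by 5.01 (SE 0.25). The neighbouring MMP genes lie close together on chromosome 5 of canFam2, where the MMP13, MMP3 and MMP1 probes start at 31867714, 31966556 and 31994840. On the CMT-U27 side were the epithelial serpin SERPINB5 (-3.37, SE 0.20), the lysosomal protease CTSD (-3.41, SE 0.20) and the protease inhibitor TIMP3 (-1.86, SE 0.20).

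MHC class II genes were high in CMT-U27 and near background in P114. Of 36 antigen presentation genes 24 have a probe and 20 passed. In monoculture 14 were past 2-fold toward CMT-U27 and 0 toward P114, with a median difference of -2.26, and limma called 15 and 0 of 20 that passed. DLA-DRA, the alpha chain of the class II molecule DR, read 14.51, 14.29, 14.48 and 14.68 in CMT-U27 and was above background in no P114 channel, at least 1022-fold higher in CMT-U27. HLA-DRB1 and HLA-DQB1 were not on the list but are among the genes furthest apart. HLA-DRB1, the name the array gives to the beta chain, read 16.89, 16.56, 17.10 and 17.10 in CMT-U27 and 5.01, 5.02, 5.52 and 4.37 in P114, where 1 of 4 channels was well above background. HLA-DQB1, a beta chain of the class II molecule DQ, was at least 1012-fold higher in CMT-U27. Class II genes differ in sequence between dogs and resemble each other, and whether a probe binds the alleles of both lines equally was not tested.

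The proteins that serve class II molecules were higher in CMT-U27 too. CD74, the invariant chain that guides class II molecules, read 11.65 and 11.98 in CMT-U27 monoculture and 13.71 and 13.87 in its co-culture, and was not well above background in P114, at least 318-fold higher in CMT-U27. The transactivator CIITA read 10.82, 10.89, 11.32 and 11.20 in CMT-U27 and 3.81, 5.17, 5.47 and 4.88 in P114, with 1 of 4 P114 channels well above background. HLA-DMB, which loads peptides, differed by -6.36 (SE 0.21), above background in 3 of 4 P114 channels. Class I genes differed less than these, with fitted log2 differences of -2.82 for B2M, -3.52 for DLA-12, -2.58 for the peptide transporter TAP1 and -4.59 for the immunoproteasome subunit PSMB9, each measurable in every channel of both lines.

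Interferon-stimulated genes that were called lay mostly toward CMT-U27. Of 58 listed, 44 have a probe and 33 passed, and in monoculture 16 (48.5%) were past 2-fold toward CMT-U27 and 3 (9.09%) toward P114, with a median of -1.28. Limma called 18 (54.5%) higher in CMT-U27 and 3 (9.09%) in P114, the latter near the 11.2% of all genes. The antiviral GTPase gene MX1 read 8.70, 8.55, 8.58 and 8.71 in CMT-U27 and 4.21, 4.98, 4.41 and 4.17 in P114, where 1 of 4 channels was well above background. IRF7, a regulator of interferon genes, read 9.52, 9.22, 9.21 and 9.17 in CMT-U27 and 5.12, 5.17, 4.60 and 4.81 in P114, where 2 of 4 channels were well above background. IFI35 and PARP14 differed by -4.23 and -4.37, with PARP14 above background in 2 of 4 P114 channels. The 3 genes that were higher in P114 were OAS1, OAS2 and IFIT5, sensors of viral RNA, with log2 differences of 1.22, 1.09 and 1.15.

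**Figure D4:**
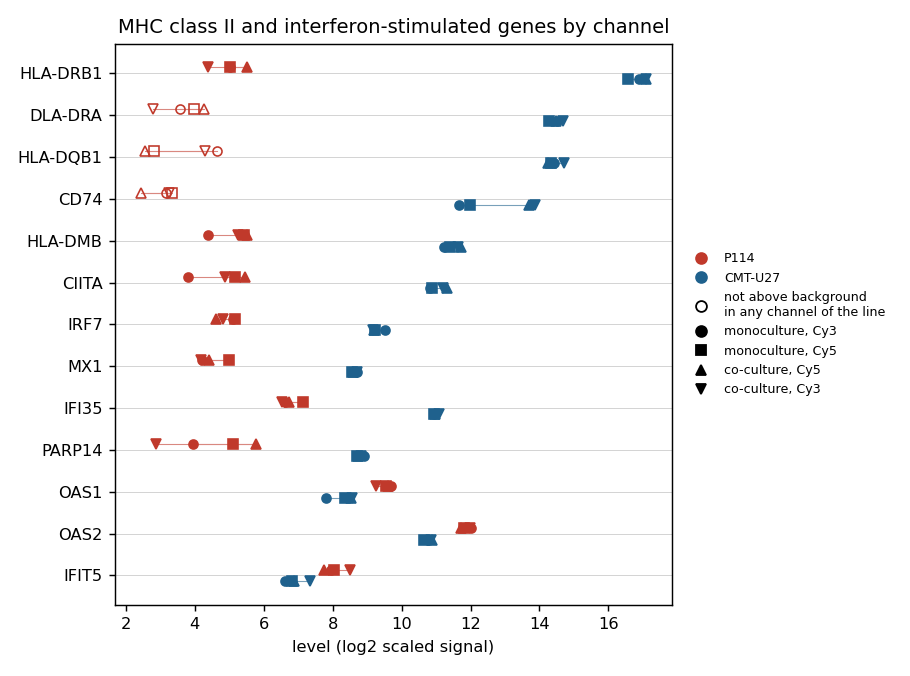
Level (log2 scaled signal) of 6 MHC class II pathway genes and 7 interferon-stimulated genes in each channel of P114 (red) and CMT-U27 (blue), with marker shape for culture and dye and open markers for a gene above background in no channel of that line. The class II pathway genes lie above 10 in CMT-U27 and below 6 in P114, while OAS1, OAS2 and IFIT5 lie higher in P114.

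The interferon lambda axis and the STAT genes, which the study followed, were called about as often as all genes. Of 26 genes that passed, from 31 with a probe and 39 listed, limma called 2 (7.69%) higher in P114 and 4 (15.4%) in CMT-U27 and left 20 uncalled, and the median monoculture difference was -0.23 against -0.15 over all genes. STAT2 read 9.47, 9.31, 9.49 and 8.90 in P114 and 7.01, 7.01, 7.30 and 7.18 in CMT-U27, a log2 difference of 2.17 (SE 0.21). STAT3, a signal transducer of interleukins, read 9.76, 9.97, 9.71 and 9.82 in P114 and 10.96, 11.05, 10.88 and 11.17 in CMT-U27, a difference of -1.20 (SE 0.20, limma adjusted p = 4.8e-05) whose sign its 4 probes shared, of which 2 were called. The interferon lambda receptor gene IL28RA was well above background in 0 of 4 P114 channels and 1 of 4 CMT-U27 channels, so no fold is given.

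IL18, SEMA6C and VEGFC are further genes that were followed up beyond the arrays. None of them differed past 2-fold between the lines. The cytokine IL18 read 6.69, 6.64, 6.64 and 6.24 in P114 and 6.63, 5.36, 6.50 and 5.86 in CMT-U27, a difference of 0.47 (SE 0.26, limma adjusted p = 0.14). SEMA6C differed by 0.25 (SE 0.24, limma adjusted p = 0.38). The lymphangiogenic factor VEGFC differed by -0.43 (SE 0.22, limma adjusted p = 0.10). For these 3 genes the channels of the lines overlapped. KRT17 was well above background in 1 of 4 P114 and 2 of 4 CMT-U27 channels and MMP20 in none, so neither passed the filter.

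Cytokines and chemokines were called in both directions, 9 (26.5%) higher in P114 and 12 (35.3%) in CMT-U27 of 34 that passed, from 53 with a probe and 64 listed. IL8, a neutrophil chemokine, read 15.29, 15.22, 15.22 and 15.32 in P114 and 10.20, 9.96, 10.18 and 10.37 in CMT-U27, and all 4 of its probes were called higher in P114. CSF3, the granulocyte growth factor, was not well above background in CMT-U27 and was at least 12.6-fold higher in P114. PTGS2, the inducible cyclooxygenase, read 11.84, 11.90, 12.04 and 12.19 in P114 and 3.61, 3.53, 2.76 and 5.01 in CMT-U27, above background in 1 of 4 CMT-U27 channels.

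CMT-U27 carried another set of chemokines. CCL28, a chemokine of mucosal epithelia, read 12.30, 12.48, 12.77 and 12.64 in CMT-U27 and 4.66, 3.03, 4.49 and 5.05 in P114, above background in 2 of 4 P114 channels. CXCL12, the ligand of CXCR4, was at least 15.8-fold higher in CMT-U27. CCL20, which attracts dendritic and T cells, read 11.34, 11.35, 11.24 and 11.33 in CMT-U27 and 7.56, 7.65, 7.24 and 7.47 in P114.

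Growth factor ligands and receptors also separated the lines. Of 30 receptor tyrosine kinases and ligands that passed, limma called 11 (36.7%) higher in P114 and 8 (26.7%) in CMT-U27. Neuregulin 1 (NRG1), the ligand of ERBB3, read 11.53, 11.68, 11.38 and 11.65 in P114 and was not well above background in CMT-U27, at least 203-fold higher in P114. ERBB3 itself was not well above background in P114 and was at least 5.04-fold higher in CMT-U27, so that the ligand was measured in one line and the receptor in the other. IGF1R was higher in P114 by a log2 difference of 3.97 (SE 0.25). The receptors NTRK2 and KIT were at least 29.5-fold and 14.4-fold higher in CMT-U27.

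In the TGF-beta and BMP list limma called 10 genes (27.8%) higher in P114 and 4 (11.1%) in CMT-U27 of 36 that passed. BMP4 was at least 68.0-fold higher in P114. INHBA, the subunit of activin A, read 12.70 and 12.82 in P114 monoculture and 5.83 and 5.91 in CMT-U27 monoculture, and its fitted log2 difference was 6.54 (SE 0.22). SMAD4, the shared signal transducer of the pathway, was lower in P114, at -1.67 (SE 0.20), and both of its probes had this sign, of which 1 was called. In the Wnt list 8 genes (30.8%) were called higher in P114 and 2 (7.69%) in CMT-U27 of 26 that passed, with the ligand WNT7A at least 94.7-fold higher in P114 and the secreted antagonist SFRP2 at least 65.2-fold higher in CMT-U27. Of 15 angiogenic factors and receptors, 7 (46.7%) were called higher in P114 and 2 (13.3%) in CMT-U27. Adrenomedullin (ADM) differed by 3.96 (SE 0.20), and endothelin 1 (EDN1) was at least 44.1-fold higher in CMT-U27.

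Mammary lineage genes gave no single direction. Of 18 hormone receptors and lineage regulators that passed, from 28 with a probe and 34 listed, limma called 3 (16.7%) higher in P114 (GATA3, PGR and CD44) and 7 (38.9%) in CMT-U27. GATA3, a luminal transcription factor, read, as means over the dyes, 10.94 in monoculture and 10.73 in co-culture in P114 and 6.83 in monoculture and 7.37 in co-culture in CMT-U27. The progesterone receptor gene PGR read 7.99, 8.36, 7.69 and 8.15 in P114 and was above background in 2 of 4 CMT-U27 channels. ELF5, a regulator of alveolar cells, was not well above background in P114 and was at least 11-fold higher in CMT-U27.

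Glycolysis and hypoxia genes that were called were higher in P114. Of 42 listed, 36 have a probe and 32 passed, and in monoculture 12 were past 2-fold toward P114 and 0 toward CMT-U27, with a median of 1.05. Limma called 15 (46.9%) higher in P114 and 0 in CMT-U27 and left 17 uncalled, with fitted differences down to -0.86 among them. Carbonic anhydrase CA9, a classic hypoxia gene, read 13.92, 13.98, 14.30 and 14.37 in P114 and 8.74, 8.75, 8.95 and 9.13 in CMT-U27. The lactate exporter SLC16A3 read between 10.32 and 10.89 in P114 and between 3.35 and 4.57 in CMT-U27, above background in 1 of 4 CMT-U27 channels. The mitochondrial protein BNIP3 differed by 3.52 (SE 0.20) and the glycolytic enzyme LDHA by 1.30 (SE 0.20). FBP1 and FBP2, fructose bisphosphatases that run the opposite step in glucose synthesis, were at least 296-fold and 178-fold higher in CMT-U27. Their probes lie side by side on chromosome 1 of canFam2, starting at 75179868 and 75224961.

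Detoxification genes had their widest gaps toward CMT-U27. Of 36 that passed, limma called 11 (30.6%) higher in CMT-U27, against 19.3% of all genes. It called 4 (11.1%) higher in P114, about the 11.2% of all genes. GSTP1, a glutathione transferase, read 15.62, 15.42, 15.80 and 15.98 in CMT-U27 and 8.62, 9.16, 8.85 and 8.94 in P114. Catalase (CAT) and the glutathione peroxidase GPX2 differed by -4.88 (SE 0.21) and -5.37 (SE 0.21). In P114 the drug exporter ABCB1 was higher by 3.86 (SE 0.20) and the aldehyde dehydrogenase ALDH3A1 by 3.09 (SE 0.21). Of 30 cholesterol and fatty acid synthesis genes, 1 (3.33%) was called higher in P114 and 10 (33.3%) in CMT-U27, among them HMGCS1, an early enzyme of the cholesterol pathway, at -3.91 (SE 0.20).

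Of 48 cytosolic ribosomal protein genes, limma called 0 higher in P114 and 1 (RPL17) in CMT-U27, 2.08% of the list, with a median monoculture difference of 0.09. Of 48 cell cycle genes 10 (20.8%) were called higher in CMT-U27, close to the 19.3% of all genes, and 1 (CCND2, 2.08%) in P114, and the median was -0.53 against -0.15. The mitotic cyclin CCNB2 differed by -1.51 (SE 0.20) and the G1 cyclin CCND2 by 2.83 (SE 0.20). The cyclin kinase inhibitor CDKN1A read 15.25, 15.48, 15.27 and 15.41 in P114 and 11.91, 11.87, 11.87 and 12.23 in CMT-U27. Of 23 cell cycle inhibitors and p53 targets that passed, 6 (26.1%) were called higher in P114 and 4 (17.4%) in CMT-U27, and of 21 S100 proteins and annexins 3 (14.3%) and 5 (23.8%).

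Markers of other cell types were read because the co-cultured cells had been kept with MDSCs in inserts. Of 29 myeloid markers 25 have a probe, and between 7 and 13 of these were well above background in the P114 channels and between 8 and 14 in the CMT-U27 channels. The 8 that passed held 0 limma calls toward P114 and 3 (37.5%) toward CMT-U27, against 19.3% of all genes toward CMT-U27. The defining genes PTPRC, ITGAM, CSF1R, SPI1, CD163 and LYZ were above background in no channel of either line. The summed signal of the list, on the unlogged scale, was 2431 to 2880 in P114 and 9655 to 16055 in CMT-U27. Much of the CMT-U27 sum came from 1 gene, S100A8, a calprotectin subunit that epithelia also make. On the log2 scale S100A8 read 12.72, 12.84, 13.61 and 13.66 in CMT-U27 and 8.67, 9.33, 8.81 and 8.79 in P114. The gap between the sums is therefore not one of the myeloid list as a whole. The 9 lymphocyte markers that passed had fitted differences between -0.18 and 0.80, all under 2-fold.

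Fibroblast and smooth muscle markers moved with P114. Of 14 listed, 13 have a probe and 11 passed, and limma called 7 (63.6%) higher in P114 and 0 in CMT-U27. The list shares COL1A1, COL1A2, COL3A1, DCN and LUM with the matrix list and THY1 and CNN1 with the mesenchymal list. Its summed signal was 174700 to 213470 in P114 and 8971 to 10413 in CMT-U27, the defining gene PDGFRA differed by 2.14, and FAP and THY1 did not reach 2-fold. Of 6 endothelial markers that passed, 2 (33.3%) were called higher in P114 and 1 (16.7%) in CMT-U27. CDH5, TEK and EMCN were above background in no channel, and PECAM1 and VWF were in every channel of both lines. The adhesion molecule SELE was at least 63.3-fold higher in P114. KDR, the call in the other direction, was at least 8.56-fold higher in CMT-U27 and above background in no P114 channel. Fewer cells of a type and less RNA per cell cannot be told apart in these bulk samples, and the part of other cell types in the differences above was not tested.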

How the data were processed

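The authors read the scans with Agilent Feature Extraction (version 10.7.3.1 per the labels, 10.10.1.1 per the file headers) and deposited, for each spot, its intensity and local background and a processed signal intensity per dye that is background-subtracted, adjusted between dyes, and given a surrogate value where very low. The deposited table of log10 ratios of co-culture over monoculture was checked against the scanner files and not used further. Control spots and outlier flags were left out, spots of a probe averaged, log2 processed signals scaled to a common median (6.23) and CMT-U27 subtracted from P114 within dye and condition. Limma 3.58.1 in R 4.3.3 (lmFit, eBayes with trend) was fitted to the 4 RNA samples, each the mean of its dye-swap. Where all 4 channels of a line were at background, a bound is given from loess and Aquantile normalized values: the mean of the brighter line against, per channel of the dimmer one, its own reading or the lowest reading that counted as above background, whichever was larger.

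The members, the 26 gene lists and the naming rule were chosen with earlier results of these data known. Named genes are the 12 in each direction with the largest smallest-of-4 difference, up to 4 members of each list in each direction by monoculture difference, the genes the study measured again and cell type markers. SNAI1, SNAI2, B2M, DLA-12, TAP1, PSMB9, LDHA, PDGFRA and the genes named for completeness of a count of 5 or fewer were named after their values were seen. Symbols are those of the files, and of 13040, 11812 were found among the symbols and synonyms of the RefSeq dog table. Coordinates are those of the files on canFam2. In simulated data with 200 of 26012 probes changed, the line comparison called 81 of 100 probes changed by 1.5 on the log2 scale and 99 of 100 changed by 3, and 42 unchanged probes. The simulation changed far fewer probes than were called in the data and held no array effect. Its rates of right and wrong calls therefore do not carry over to the data. The number of arrays limits the precision. Alternatives were other scalings, normexp background correction, other filters, each dye orientation left out, other forms of the fit and the median over the probes of a gene. Some results are not reported here.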

Additional observations from a re-analysis of the deposited data

Results flagged for a closer look

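One gene had its line difference past 2-fold toward P114 in both dyes of monoculture and past 2-fold toward CMT-U27 in both dyes of co-culture. VPS37B, a subunit of an endosomal sorting complex, differed by 1.04 in monoculture and by -2.19 in co-culture on the log2 scale. Its co-culture readings in CMT-U27 were 6.68 in Cy5 and 8.76 in Cy3, so the dye readings of the same RNA also stood apart. The difference between the conditions was not tested. Only 2 of 26012 probes turned in this way.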

How the results depend on the processing

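The direction of the line difference was kept under each alternative by all 7768 probes called over both cultures, where they were in the fit, although fewer passed the threshold under some. For named genes the exception was FADS2, whose brightest probe was higher in P114 (0.98) and whose median over 3 probes was -2.00. Left unscaled, the channels gave 1395 probes higher in P114 in monoculture, 1288 in co-culture and 1886 in limma, with 7936 higher in CMT-U27 in limma. Normexp with loess and Aquantile gave 1542 and 1807 in monoculture, 1698 and 1731 in co-culture and 1886 and 2091 in limma (higher in P114, then in CMT-U27), and 3827 of the 7768 calls remained. It also left 5 lists with a median monoculture difference past 2-fold in place of 9. Without a filter 4206 of 43551 probes were higher in P114 in monoculture, and with a maximal intensity over 10 there were 4115 of 40879. The main setting gave 2661 of 26012. Among the 22052 probes well above background in all 8 channels, 2526 were higher in CMT-U27 in monoculture, 2505 in co-culture and 3022 in limma. The counts under other filters thus rest on other numbers of probes. A t-test of the 2 matched differences left 0 probes in either direction after adjustment, with 5648 at an unadjusted p under 0.05, since it has 1 degree of freedom and borrows no spread across probes. The replicate numbers of the labels mark the dye orientation, and a fit of the 8 channels with the number as a replicate block gave 3178 and 4586 probes in place of 3180 and 4588. Leaving out replicate 1 or 2 of both lines (the first array or the dye-swap) gave, over the 2 settings, 3649 to 3674 probes higher in P114 and 4784 to 5335 in CMT-U27 in monoculture, 3320 to 3672 and 4564 to 4827 in co-culture, 3129 to 3493 and 4516 to 4722 in limma, and 7 to 8 lists past 2-fold. With 1 array of each line left out, each culture condition kept 1 dye. The monoculture and co-culture calls there needed 2-fold in that dye only, while the main counts needed it in both dyes. These counts are therefore not on the same rule. A fit with the slide as a block was not possible because each slide holds 1 line. Signals near background limit the dim side of the largest differences, where only bounds can be given.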

Other observations

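A few neighbouring probes shared a pattern of presence and absence between the lines. On chromosome X of canFam2, between 78375575 and 79489007, 10 of 20 neighbouring probes that passed the filter were well above background in all 4 CMT-U27 channels and in no P114 channel. Over all 26012 probes 663 had this pattern, and on chromosome X 26 of 718. The window held the highest count of this pattern in a scan of windows of 20 probes along each chromosome. On chromosome 11 P114 and CMT-U27 were alike instead. CDKN2B, an inhibitor of cyclin-dependent kinases, and 1 of the MTAP probes, for an enzyme of methionine salvage, were dim in both. Averaged over its 4 channels, CMT-U309 read 7.88 for CDKN2B and 11.43 for this MTAP probe. P114 read 3.23 and 2.40, and CMT-U27 2.95 and 2.06. The other MTAP probe was well above background in 3 of 4 channels of P114 and of CMT-U27, with means of 5.57 and 5.16, and read 8.49 in CMT-U309. These regions were picked after their values were seen, and no test was made.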
